A study of Triticum aestivum with 12 samples.

Results

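A set of 7 short genes without a description in the deposited annotation were expressed in wheat grain at 20 days after anthesis and were at or near 0 at 30 days, in a mutant line and in its comparison cultivar alike. The 7 were chosen from the expression values themselves, out of 25269 genes in the table used here. They are the protein-coding genes with an empty description, without the Gene Ontology (GO) terms nutrient reservoir activity, serine-type endopeptidase inhibitor activity, structural constituent of ribosome and nucleosome, and with a mean of at least 5 FPKM in both 20-day groups and below 0.5 FPKM in both 30-day groups. FPKM is the number of fragments per kilobase of transcript, scaled to sequencing depth. Of the 12357 protein-coding genes, all on chromosomes 1A, 1B and 1D, 10635 met the conditions on description and terms, 1377 of these met the 20-day threshold, and 7 of the 1377 also met the 30-day threshold.

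RNA was sequenced from immature grain of bread wheat (Triticum aestivum) in 4 groups of 3 libraries. The groups were the mutant HPm512, labelled as having high antioxidant activity, at 20 days after anthesis (HP20) and at 30 days (HP30), and Zhoumai22, labelled as wild type, at 20 days (WT20) and at 30 days (WT30). The labels name no treatment and do not give the mutated locus of HPm512, a line whose genetic relation to Zhoumai22 is likewise not given in the sources used here. Nothing in the labels says whether libraries came from separate plants or fields, and the p-values therefore speak to library-to-library spread alone, some or all of it possibly technical.

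The deposited counts summed to 9244968 to 15187939 per library, and library totals implied by the counts and FPKM together were 59326554 to 73558050 on the scale of those counts. Genes of gliadin, glutenin and purothionin, proteins of starchy endosperm, were summed. The sums were 21374 to 39460 FPKM in HP20, 45242 to 46081 FPKM in WT20, 28823 to 35092 FPKM in HP30 and 5866 to 5978 FPKM in WT30. Each of the 12 genes had reads in every group. Replicate 3 of HP20 stood apart from the other 2 HP20 libraries: it had the lowest summed level of embryo markers, at 26.4 FPKM in a group that reached 136 FPKM. Without it the same rule chose 8 genes, the 7 and TraesCS1B02G080900. The mean HP20 level of the 7 genes without it was 0.759 to 1.16 times that with it, so the folds of HP30 below HP20 that follow move by the same factors. All folds between ages are of deposited FPKM, without the TMM factors that scale libraries in the tests. Those factors were 1.08 to 1.27 in HP20, 0.920 to 0.968 in WT20, 0.788 to 0.832 in HP30 and 1.09 to 1.15 in WT30. Division by them makes the folds smaller in the mutant and larger in the wild type. Tests of the 7 genes in HP20 against WT20 are given without replicate 3 of HP20 as well. Other tests that use this library are not all given without it.

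Over about this period a cereal grain generally passes from filling to maturation. During filling the endosperm stores starch and protein and the embryo is growing. By maturation cell division has ended, the green layers of the pericarp are lost and the embryo acquires tolerance of drying. Transcripts of early structures disappear over this period while those of late embryogenesis proteins accumulate. In whole grain, fewer cells of a type and less RNA per cell cannot be told apart. Whether the cultivars were at the same stage at each age was not tested. The gliadin, glutenin and purothionin sums above were lower in WT30 than in WT20, while those of HP30 lay within the HP20 range.

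Summed over the 7 genes, the deposited level was 338, 405 and 414 FPKM in the 3 HP20 libraries and 293, 319 and 270.4 FPKM in the 3 WT20 libraries. Division by the TMM factors narrows this gap between the cultivars. At 30 days the same sum was 2.33, 1.01 and 0.801 FPKM in HP30 and 0.395, 0.787 and 0.975 FPKM in WT30. Every 20-day library therefore lay far above every 30-day library, a gap that the choice of genes fixed and that was not tested. The genes differed widely in their 20-day level. TraesCS1D02G268200 and TraesCS1A02G062900 together supplied most of the sum and ranked 36 and 44 among the 1377 genes that met the 20-day threshold, whereas TraesCS1D02G053000 and TraesCS1B02G351400 ranked 827 and 912.

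**Figure D1:**
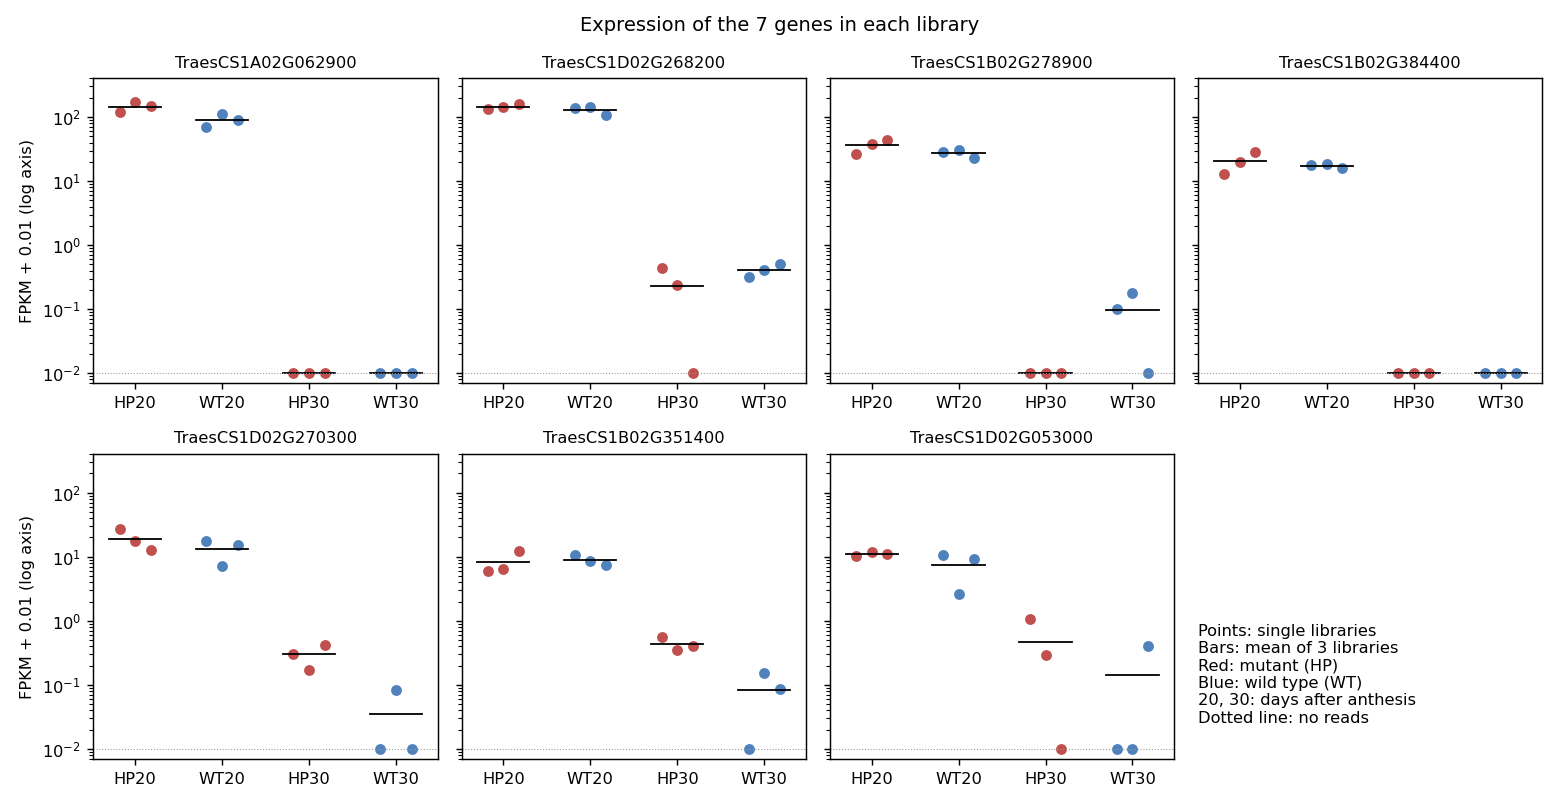
FPKM + 0.01 of each of the 7 genes (vertical axis, log scale) in the groups HP20, WT20, HP30 and WT30 (horizontal axis), with points for libraries, bars for means of 3 libraries and a dotted line at the value of a library without reads. All 7 genes sit at 2.64 FPKM or more in every 20-day library and at 1.06 FPKM or less in every 30-day library.

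Of the 7 genes, 3 carried a GO or KEGG entry, each a different one. TraesCS1B02G384400 (1B, 617088322 to 617089106, plus strand) is annotated only with enzyme inhibitor activity, a term that in plants is often attached to small secreted inhibitors of pectin methylesterase and invertase, enzymes of the cell wall and of sucrose breakdown. It had 12.9, 19.5 and 28.7 FPKM in HP20 and 17.6, 18.3 and 16.0 FPKM in WT20. No read was counted for it in any of the 6 libraries of 30 days. The HP20 libraries spread on both sides of the WT20 libraries, which lay close together. The limit used was 12 counts over 3 libraries. It was taken as 3 fragments because 55.8% of low counts fell at multiples of 4, for a reason not known. Against it, the level was at least 268-fold lower in HP30 than in HP20 and at least 243-fold lower in WT30 than in WT20. Such limits cover counting error only.

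TraesCS1D02G053000 (1D, 33711972 to 33712886, plus strand) is annotated with defense response, extracellular space, cadmium ion binding and cadmium ion homeostasis, a set of terms given to secreted defensin-like peptides. Its level was 10.4, 11.9 and 11.1 FPKM in HP20 and 10.6, 2.64 and 9.36 FPKM in WT20. It had 1.06, 0.287 and 0 FPKM in HP30 and 0, 0 and 0.396 FPKM in WT30. One WT20 library lay well below the other 2, and in each 30-day group a single library held most of the reads. The mean was 24.7-fold lower in HP30 than in HP20 and 57.1-fold lower in WT30 than in WT20, from 57 counts in HP30 and 17 counts in WT30.

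TraesCS1D02G270300 (1D, 365297955 to 365298824, plus strand) is assigned to biosynthesis of the glycosylphosphatidylinositol (GPI) anchor, which attaches proteins to the outer face of the plasma membrane, under KEGG entry K03860, a subunit of the enzyme complex that begins anchor assembly. It had 27.1, 17.5 and 12.9 FPKM in HP20 and 17.3, 7.06 and 15.4 FPKM in WT20, with overlap between the cultivars. At 30 days it had 0.298, 0.160 and 0.413 FPKM in HP30, where all 3 libraries held reads, and 0, 0.0746 and 0 FPKM in WT30, where 1 library held 4 counts. The mean was 66.0-fold lower in HP30 than in HP20.

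The other 4 genes had neither a GO nor a KEGG entry, so no role can be given for them from the files. TraesCS1D02G268200 (1D, 363857048 to 363857557, plus strand) was the most abundant, with 134.4, 142 and 158 FPKM in HP20 and 138, 141 and 109 FPKM in WT20. It kept a trace of reads at 30 days, with 0.427, 0.230 and 0 FPKM in HP30 and 0.303, 0.401 and 0.502 FPKM in WT30. The mean was 662-fold lower in HP30 than in HP20 and 322-fold lower in WT30 than in WT20. The cultivars overlapped at both ages.

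TraesCS1A02G062900 (1A, 42721261 to 42721834, plus strand) had 120.5, 169.6 and 147 FPKM in HP20 and 69.9, 109.97 and 90.5 FPKM in WT20. All 3 HP20 libraries lay above all 3 WT20 libraries in deposited FPKM, as was the case for 38.4% of the 5723 genes tested. Its mean deposited FPKM in HP20 was 1.62 times that in WT20, the highest such ratio among the 7. It had no read in any 30-day library, which puts it at least 1003-fold lower in HP30 than in HP20 and at least 659-fold lower in WT30 than in WT20.

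TraesCS1B02G278900 (1B, 487170528 to 487171191, plus strand) had 26.2, 38.0 and 44.1 FPKM in HP20 and 28.4, 30.9 and 23.1 FPKM in WT20. It had no read in HP30, and in WT30 it had 0.0923, 0.167 and 0 FPKM from 11 counts. Relative to HP20 it was at least 347-fold lower in HP30. TraesCS1B02G351400 (1B, 582021611 to 582022298, minus strand) was the least abundant of the 7 at 20 days, with 6.05, 6.41 and 12.2 FPKM in HP20 and 10.8, 8.46 and 7.46 FPKM in WT20. At 30 days it had 0.543, 0.337 and 0.388 FPKM in HP30 and 0, 0.145 and 0.0763 FPKM in WT30. The 3 HP30 libraries lay above the 3 WT30 libraries, from 61 counts in HP30 and 12 counts in WT30. Of all genes tested, 8.33% lay higher in HP30 in this way and 63.2% did not overlap in either direction. The HP30 mean was 19.4-fold below that of HP20.

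The thresholds cut through a continuous range of values, which is given here as a description. Nearest inside the 30-day threshold were TraesCS1D02G053000, TraesCS1B02G351400 and TraesCS1D02G268200, whose higher 30-day group means were 0.450, 0.423 and 0.402 FPKM. After division by the TMM factors used in the tests, TraesCS1D02G053000 averaged 0.547 FPKM and TraesCS1B02G351400 averaged 0.522 FPKM in HP30, so only 5 of the 7 genes met the rule on that scale, and no other gene did. Just outside it stood TraesCS1A02G268300 at 0.566 FPKM in WT30, with 38.7 FPKM in HP20 and 36.7 FPKM in WT20, followed by TraesCS1A02G174800 at 0.677 FPKM and TraesCS1A02G321100 at 0.748 FPKM. Nearest inside the 20-day threshold, by the lower of the 2 group means, were TraesCS1D02G053000 at 7.54 FPKM, TraesCS1B02G351400 at 8.21 FPKM and TraesCS1D02G270300 at 13.3 FPKM. Just outside it were TraesCS1A02G366600 at 4.53 FPKM, TraesCS1D02G218400 at 4.30 FPKM and TraesCS1B02G066400 at 4.15 FPKM. Without the conditions on description and terms, 20 protein-coding genes met the same expression thresholds. Of these, 12 were described as histones, and 1 more had no description but carried an excluded term.

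**Figure D2:**
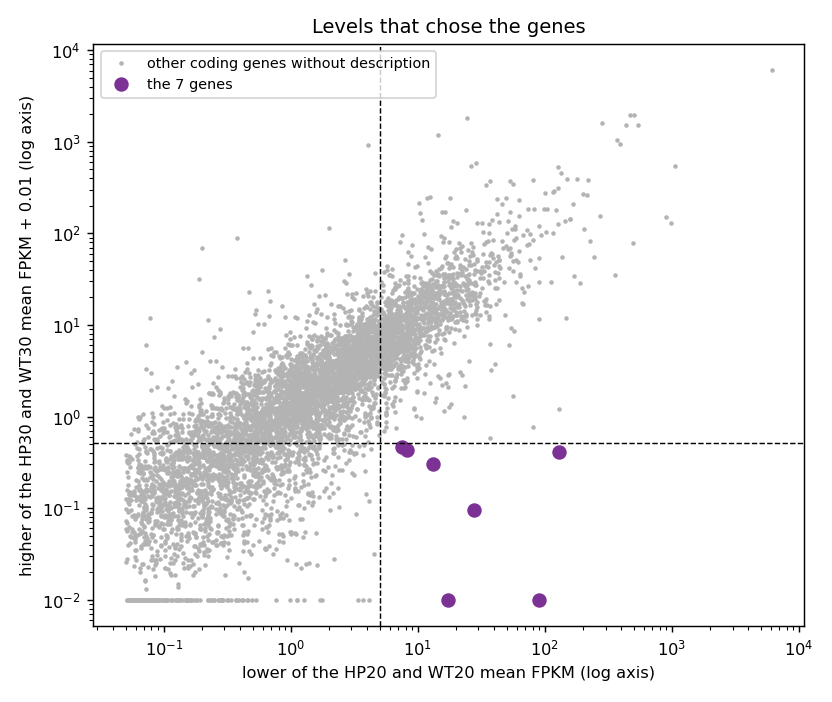
Each protein-coding gene that met the conditions on description and terms, by the lower of its 2 mean levels at 20 days (horizontal axis, FPKM, log scale) and the higher of its 2 mean levels at 30 days (vertical axis, FPKM + 0.01, log scale), with the thresholds of 5 and 0.5 FPKM as dashed lines and genes at or under 0.05 FPKM on the horizontal axis left out. The 7 genes lie in the lower right corner, and genes without a read at 30 days are drawn at the bottom.

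Short length was common to the 7 and was not used to choose them. Their genomic spans ran from 510 to 915 bp with a median of 688 bp, against a median of 3765 bp over the 1377 genes that met the 20-day threshold. All 7 were under 1000 bp, as were 120 of the 1377 (8.71%). The transcript length implied by counts and FPKM equalled the span for TraesCS1B02G351400 (688 bp) and came to 784 bp of 785 bp for TraesCS1B02G384400, while it was shorter for the other 5, for instance 409 bp of 574 bp for TraesCS1A02G062900. Each gene had 1 annotated transcript. Annotation was sparse: 4 of 7 (57.1%) had neither a GO nor a KEGG entry, against 21.1% of the 1377. These shares describe 7 genes and were not tested.

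The genes were spread over the chromosomes. The 3 genes on 1B lay 35.1 to 129.9 Mb apart, and the nearest pair, TraesCS1D02G268200 and TraesCS1D02G270300, lay 1.44 Mb apart on 1D. Around TraesCS1D02G268200 the nearest gene models were still detected at 30 days. TraesCS1D02G268100, 3.96 kb away, averaged 12.8 FPKM in HP20 and 8.18 FPKM in WT20, and 11.998 FPKM in HP30 and 23.9 FPKM in WT30, above its 20-day level in the wild type. Around TraesCS1A02G062900 some nearby models were also low at 30 days. TraesCS1A02G062700, across a gap of 23.2 kb, averaged 3.64 FPKM in HP20 and 3.41 FPKM in WT20 and had no read at 30 days in either cultivar. TraesCS1A02G062600 averaged 38.4 FPKM in HP20 and 37.4 FPKM in WT20, and 3.21 FPKM in HP30 and 1.58 FPKM in WT30.

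Genes with the same annotation as the 3 annotated members were then examined, a choice made after their values were seen. Enzyme inhibitor activity was attached to 32 genes of the table, of which 3 reached 1 FPKM in at least 3 libraries, the minimum for testing. Apart from TraesCS1B02G384400, these were TraesCS1A02G366600, with 2.25, 7.02 and 10.99 FPKM in HP20 and 3.91, 6.12 and 3.56 FPKM in WT20, and TraesCS1B02G409000, with 0.499, 0.776 and 2.02 FPKM in HP20 and 1.61, 1.33 and 0.516 FPKM in WT20. Both had no read in HP30, and each had reads in a single WT30 library, at 0.0646 and 0.0431 FPKM. These 2 genes passed the minimum through their 20-day libraries, so they could hardly do other than fall, and no test of it is given. In all 3 genes the HP20 libraries stood in the same order, with replicate 1 lowest and replicate 3 highest. That order was not particular to the term, as TraesCS1B02G278900, TraesCS1B02G351400 and TraesCS1D02G268200 had it too. It did not hold for TraesCS1A02G062900, TraesCS1D02G053000 and TraesCS1D02G270300.

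Defense response was attached to 44 genes, of which 22 besides TraesCS1D02G053000 were tested. In HP30 against HP20, 10 of the 22 fell and 8 rose (edgeR quasi-likelihood test, Benjamini-Hochberg adjusted p under 0.05), where 27.9% of the 5723 genes tested fell and 29.9% rose, 57.8% in all. In WT30 against WT20, 15 fell and 7 rose, where 31.9% of the genes tested fell and 31.8% rose, 63.7% in all. Of the 22, 5 had no 30-day library at 1 FPKM, so that they reached the minimum only through 20-day libraries, and these 5 are among the genes that fell in both cultivars. In the same way 1 gene reached it only through 30-day libraries and is among those that rose in both. These counts therefore partly follow from the minimum. Without HP20 replicate 3, 10 of the 22 fell and 9 rose in the mutant, where 25.8% of all genes tested fell and 27.8% rose. Genes described as defensins, small secreted antimicrobial peptides, were among them. The defensin gene TraesCS1A02G014000 averaged 27.9 ± 8.38 FPKM in HP20 and 25.0 ± 2.98 FPKM in WT20, and 1.63 ± 0.763 FPKM in HP30 and 0.133 ± 0.230 FPKM in WT30 (SD, n = 3 each). TraesCS1D02G052900, a defensin gene 5.65 kb from TraesCS1D02G053000 on the same strand, averaged 1.53 FPKM in HP20 and 1.18 FPKM in WT20, and 0.0805 FPKM in HP30 and 0.0790 FPKM in WT30. This gene is 1 of the 5 that reached the minimum only through 20-day libraries, so its fall partly follows from the minimum. Not every defensin gene fell in both cultivars. TraesCS1D02G012600 averaged 1.32 FPKM in HP20 and 0.789 FPKM in HP30 and was not called there (adjusted p = 0.942 with edgeR). In the wild type it averaged 0.544 FPKM in WT20 and had no read in WT30.

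GPI-anchor biosynthesis showed another picture. Of its 14 genes, 5 besides TraesCS1D02G270300 were tested, and their log2 fold changes ran from -0.29 to 0.56 in HP30 against HP20 and from -0.09 to 0.79 in WT30 against WT20, where 2 of the 5 rose. Entry K03860 was attached to 5 genes of the table, TraesCS1D02G270300 among them, and not all are described here. TraesCS1A02G270100, which did not reach the minimum, had no read at 20 days. At 30 days it had 8 counts in HP30 replicate 1 and 15 counts in WT30 replicate 2. TraesCS1D02G270100 carries the same entry and lies 52.0 kb from TraesCS1D02G270300 on the same strand (1D, 365244969 to 365245921). It had 3.52, 1.72 and 0.961 FPKM in HP20 and 1.34, 0.998 and 1.57 FPKM in WT20. At 30 days it had 0.950, 1.08 and 1.48 FPKM in HP30 and 1.98, 1.96 and 2.64 FPKM in WT30. Its lowest and highest values over both ages were thus 0.950 and 3.52 FPKM, both in the mutant. All WT30 libraries lay above all WT20 libraries in FPKM, but a rise was not called. The log2 fold change of WT30 over WT20 was 0.50 ± 0.41 (SE, adjusted p = 0.304 with edgeR). TraesCS1D02G270300, in contrast, had at most 0.413 FPKM in any 30-day library. How reads shared by these gene models, or by copies on the other genomes of wheat, were assigned is not given in the sources used here, so a shift of reads between copies was not tested.

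**Figure D3:**
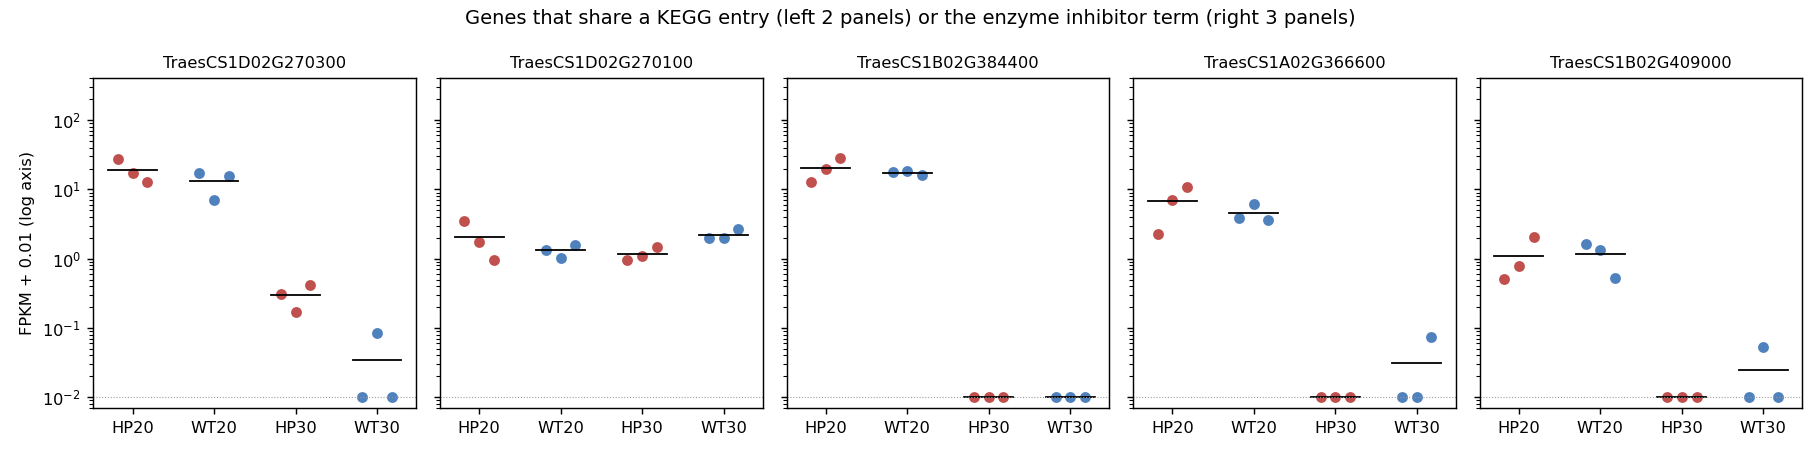
FPKM + 0.01 (vertical axis, log scale) in the groups HP20, WT20, HP30 and WT30 (horizontal axis) for TraesCS1D02G270300 and a gene with the same KEGG entry, and for TraesCS1B02G384400 and 2 genes with the enzyme inhibitor term, with points for libraries and bars for means. The inhibitor genes drop to 0 or near 0 at 30 days, while TraesCS1D02G270100, which shares an entry with TraesCS1D02G270300, stays between 0.950 and 3.52 FPKM.

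The cultivar comparison at 20 days asked whether these genes differed between mutant and wild type while they were expressed. None of the 7 passed the test (edgeR quasi-likelihood test over all 12 libraries, TMM scaling, Benjamini-Hochberg adjusted p under 0.05), where 2.29% of the 5723 genes tested did, 0.419% higher and 1.87% lower in HP20. At an unadjusted p under 0.05, 1 of the 7 passed, where 21.5% of all genes tested did. DESeq2 called 0 of the 7 and 9.14% of all genes, and limma called 1 of the 7 and 29.4% of all genes. The 7 log2 fold changes of HP20 over WT20 ran from -0.40 to 0.39, with a median of 0.10 against 0.01 over all genes tested.

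TraesCS1A02G062900 had the highest, at 0.39 ± 0.16 (SE, adjusted p = 0.209 with edgeR), and was the only one of the 7 whose FPKM did not overlap between the cultivars, as was the case for 42.7% of all genes tested (38.4% higher and 4.3% lower in HP20). Its call depended on the scaling: with library totals alone the log2 fold change was 0.69 (adjusted p = 0.0229 with edgeR), a scale on which the median gene was 0.32 higher in HP20. Without HP20 replicate 3 it was 0.32 (adjusted p = 0.311 with edgeR). Over the alternatives run, its adjusted p ranged from 0.00361 to 0.437. TraesCS1B02G351400 had the lowest value, -0.40 ± 0.39 (SE, adjusted p = 0.605 with edgeR), which was -0.88 without HP20 replicate 3 (adjusted p = 0.182 with edgeR). TraesCS1B02G384400 and TraesCS1D02G268200 had -0.06 ± 0.28 and -0.14 ± 0.21 (SE), and both signs flipped with library totals alone. TraesCS1B02G278900, TraesCS1D02G053000 and TraesCS1D02G270300 had 0.10 ± 0.25, 0.24 ± 0.76 and 0.21 ± 0.38 (SE). For all 7 the difference was not detectable beyond the spread between libraries on the TMM scale, which does not show that the levels were equal. No member was called without HP20 replicate 3 either. There TraesCS1B02G278900 stood at -0.15, TraesCS1B02G384400 at -0.47, TraesCS1D02G053000 at 0.18, TraesCS1D02G268200 at -0.27 and TraesCS1D02G270300 at 0.39.

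At 30 days the question was whether the residual reads differed between the cultivars. Of the 7 genes, 5 had any read, and 2 of these were higher in HP30 than in WT30, where 13.6% of all genes tested were called higher, 9.3% lower and 22.9% in either direction. TraesCS1B02G351400 held 61 counts in HP30 and 12 counts in WT30, a log2 fold change of 2.86 ± 0.64 (SE, adjusted p = 0.00571 with edgeR). TraesCS1D02G270300, the GPI-anchor gene, held 40 counts in HP30 and 4 counts in WT30, a log2 fold change of 3.74 ± 0.95 (SE, adjusted p = 0.0118 with edgeR). In both genes all 3 HP30 libraries lay above all 3 WT30 libraries, as did 8.33% of the genes tested, while 54.8% did not overlap with HP30 lower and 63.2% did not overlap in either direction. Both fitted values depend on the prior count of the fit, since the WT30 libraries held so few counts. Both calls also rest on few reads, and the call for TraesCS1D02G270300 ended without replicate 3 of HP30 (adjusted p = 0.0508 with edgeR), without replicate 3 of WT30 (0.0502) and with counts divided by 4 (0.0906). Its log2 fold change was 7.06 without replicate 2 of WT30, the only WT30 library with a read. Over the alternatives run, the adjusted p ranged from 5.29e-05 to 0.362 for TraesCS1D02G270300 and from 9.28e-06 to 0.122 for TraesCS1B02G351400.

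The remaining 3 genes with reads did not pass with all libraries and TMM scaling. TraesCS1D02G053000 had a log2 fold change of 2.25 ± 1.17 (SE, adjusted p = 0.194 with edgeR) from 57 counts in HP30 and 17 counts in WT30. This value turned on single libraries: it was 0.69 without replicate 1 of HP30 (adjusted p = 0.794 with edgeR) and 7.53 without replicate 3 of WT30, where the gene was called higher in HP30 (adjusted p = 0.0463 with edgeR). TraesCS1D02G268200 had -0.36 ± 0.58 (SE, adjusted p = 0.703 with edgeR) from 20 counts in HP30 and 38 counts in WT30. TraesCS1B02G278900, with no read in HP30 and 11 counts in WT30, had an adjusted p of 0.118 with edgeR, and was called lower in HP30 by DESeq2 (adjusted p = 0.0150) and by edgeR with library totals alone (0.0345), with column sums of the table (0.00601) and without replicate 3 of WT30 (0.0457). The residual reads were thus not uniformly higher in either cultivar. The difference between the 30-day and the 20-day cultivar contrasts, a test added after the 30-day values were seen, passed for 2 of the 5 genes, TraesCS1B02G351400 and TraesCS1D02G270300, both upward, where 24% of all genes tested passed, 13.1% upward and 10.9% downward.

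**Figure D4:**
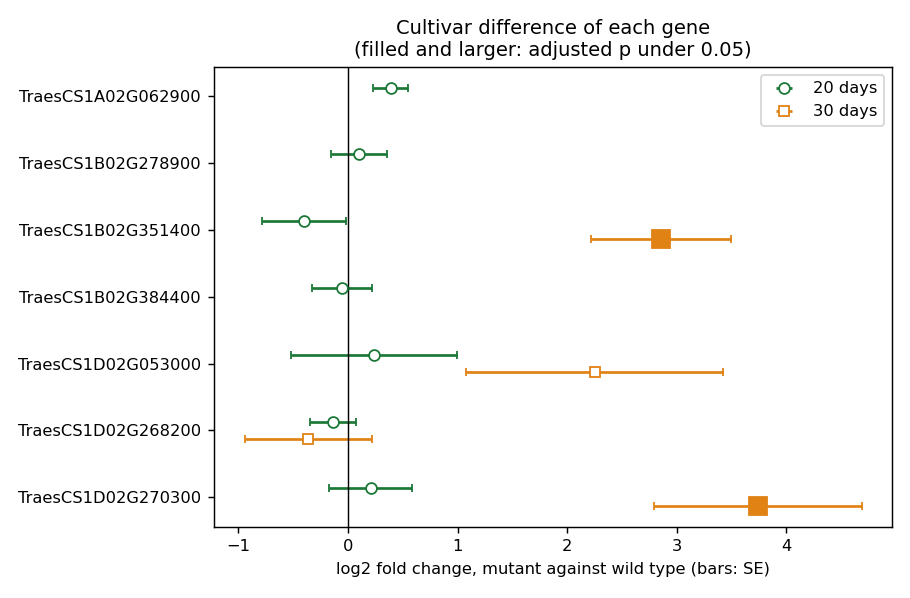
Log2 fold change of mutant over wild type (horizontal axis) for each of the 7 genes at 20 and at 30 days, with bars of 1 SE from the edgeR fit, filled points where the adjusted p was under 0.05 and no 30-day point for the 3 genes with too few counts in both cultivars. At 20 days the values lie between -0.40 and 0.39, and at 30 days only TraesCS1B02G351400 and TraesCS1D02G270300 are filled, at 2.86 and 3.74.

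Markers of several cell types moved between the ages together with the 7 genes. Histone and kinesin genes, markers of dividing cells, summed over 109 genes to 212 to 285 FPKM in HP30 and 402 to 450 FPKM in WT30, below the 2077 to 3065 FPKM of HP20 and the 1159 to 1878 FPKM of WT20. The 11 chlorophyll a-b binding genes, markers of green pericarp, summed to 0.801 to 1.69 FPKM in HP30 and 0.0480 to 0.408 FPKM in WT30, against 4.02 to 8.11 FPKM in HP20 and 8.62 to 11.4 FPKM in WT20, and 8 of the 11 had no count in HP30 and 8 had none in WT30. The 6 embryo genes (Em protein, late embryogenesis, agglutinin) ran the other way, at 1370 to 2539 FPKM in HP30 and 2782 to 2956 FPKM in WT30, against 26.4 to 136 FPKM in HP20 and 51.2 to 75.6 FPKM in WT20. The part of these cell types in the pattern of the 7 genes was not tested. At 30 days the chlorophyll list, at low levels, lay higher in all HP30 libraries than in WT30. So did the gliadin, glutenin and purothionin list, at 28823 to 35092 FPKM in HP30 and 5866 to 5978 FPKM in WT30. The histone and kinesin list and the embryo list lay lower in HP30. A link of any list to the residual reads of TraesCS1B02G351400 and TraesCS1D02G270300 was not tested.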

How the data were processed

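Grain RNA was sequenced after Trizol extraction and TruSeq library preparation, per the labels' protocols, and reads were handled with cutadapt 1.9 and FastQC, per the submitters' processing notes. The authors deposited a gene table with counts and FPKM for 12 libraries, per the file headers. No source used here names the aligner, the counter or the genome build, and coordinates are those of the deposited table. The last line of the table as used here, of 25270, was incomplete and was left out. FPKM listed as 0.0001 was read as 0.

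The total of each library was worked out by dividing counts by FPKM and length, using 43 non-coding genes that had 100 counts or more. Deposited counts in coding genes from 1 to 12 fell at multiples of 4 in 55.8% of cases. The cause is not known, and counting error is probably larger than the counts imply. The limit for a group without reads was 12 counts over 3 libraries. Genes with at least 1 FPKM in at least 3 of 12 libraries were tested (5723, all 7 members among them through their 20-day values) with edgeR 4.0.16 in R 4.3.3, as a quasi-likelihood fit of 4 group means with TMM factors. SE is the log2 fold change divided by the root of F. The threshold was a Benjamini-Hochberg adjusted p of 0.05 over all genes. The 30 against 20 day contrast of the members was not tested, because it chose them. Alternatives used DESeq2 1.42.0, limma 3.58.1 on log2(FPKM + 1) and log2(FPKM + 0.1), other scalings and filters, each library left out, a replicate block and counts divided by 4. The test was checked on simulated counts for HP20 against WT20 alone, with changes planted only in genes above a minimum mean count. That check did not include the 30-day contrast, where the members held few counts.

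The members, gene lists and tests were chosen with earlier results of these data known. The naming rule covered the members of highest level, those nearest each threshold and those of extreme cultivar ratio, which took in all 7. The tests of genes that share an annotation, and the test of the difference between ages, were added after values were seen. None of the IDs matched the RefSeq gene table provided, so no sequence is given.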

Additional observations from a re-analysis of the deposited data

Results flagged for a closer look

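For 2 of the 5 genes with reads at 30 days, the difference between the cultivars itself differed between the ages. The contrast of HP30 over WT30 minus that of HP20 over WT20 was 3.26 ± 0.75 on the log2 scale for TraesCS1B02G351400 (SE, adjusted p = 0.00692 with edgeR), where 24% of all genes tested passed this test in either direction. It was 3.53 ± 1.04 for TraesCS1D02G270300 (SE, adjusted p = 0.0257 with edgeR). In both genes 3 of 3 HP30 libraries lay above the WT30 libraries, as in 8.33% of all genes tested, while the 20-day libraries overlapped. Over the alternatives run, the adjusted p ranged from 0.00155 to 0.0348 for TraesCS1B02G351400 and from 0.00973 to 0.116 for TraesCS1D02G270300. The value for TraesCS1D02G270300 ran from 2.97 to 6.85 with 1 library left out, the highest without WT30 replicate 2. Without HP20 replicate 3 the values were 3.74 for TraesCS1B02G351400 and 3.35 for TraesCS1D02G270300, both past the threshold. The test was added after the 30-day values were seen, and it rests on 61 counts in HP30 and 12 counts in WT30 for the first gene and on 40 counts in HP30 and 4 counts in WT30 for the second.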

How the results depend on the processing

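At 20 days, edgeR called 131 genes with TMM, 1515 with library totals alone, 3218 with column sums of the table, 523 by DESeq2, 1685 and 1415 by limma with pseudocounts of 1 and 0.1, 2 from the 6 libraries of that age alone and 11 to 414 with 1 library left out. Members called at 20 days were 1 with library totals, 2 with column sums and 1 with either limma fit, and 0 with any library left out. At 30 days, 1312 genes were called with TMM, 3007 with library totals, 4437 with column sums, 3028 and 3026 by limma, and 997 to 1433 with a library left out. Library totals moved the split from 780 higher and 532 lower to 412 higher and 2595 lower, and column sums to 264 higher and 4173 lower. At 20 days the split of 24 higher and 107 lower became 1392 higher and 123 lower, and 3139 higher and 79 lower. These scalings set the median gene at 0.32 and 0.63 at 20 days and at -0.51 and -1.04 at 30 days. Members called at 30 days were 4 with column sums, 0 by limma with a pseudocount of 1, 1 from the 6 libraries alone, 1 with counts divided by 4 (a setting added after seeing the data) and 1 to 3 with a library left out. The difference between ages called 1373 genes, against 3355 with library totals, 4555 with column sums and 1102 to 1513 with a library left out; members were 1 with counts divided by 4 and 1 to 2 with a library left out.

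Signs reversed at 20 days for TraesCS1B02G351400 with column sums (0.15), for TraesCS1B02G384400 (0.23 with library totals, 0.51 with column sums, 0.16 by either limma fit) and for TraesCS1D02G268200 (0.16, 0.46, 0.17 and 0.17). With 1 library left out, 20-day values ran from -0.15 to 0.29 for TraesCS1B02G278900, -0.88 to -0.20 for TraesCS1B02G351400, -0.47 to 0.19 for TraesCS1B02G384400, -0.17 to 0.60 for TraesCS1D02G053000 and -0.13 to 0.48 for TraesCS1D02G270300. TraesCS1D02G268200 ran from -1.23 to 0.18 at 30 days and from -1.09 to 0.31 for the difference between ages. The 30-day call of TraesCS1B02G351400 ended by limma with a pseudocount of 1 (0.41, adjusted p = 0.122) and from the 6 libraries alone (adjusted p = 0.0503). That of TraesCS1D02G270300 ended by the same limma fit (0.33, adjusted p = 0.362), and its difference between ages ended without HP30 replicate 1, HP30 replicate 3, WT30 replicate 1 or WT30 replicate 3 (adjusted p = 0.0506, 0.0755, 0.0738 and 0.0735). The summed HP20 level of the 7 genes was 330.1 FPKM after division by TMM factors, against 385 FPKM as deposited. The WT20 factors were 0.920 to 0.968, so division raises the WT20 sum and the cultivar gap in the summed level narrows. Beyond what each setting changes by construction, the cause was not tested.

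Same-numbered libraries did not deviate together (r from -0.09 to -0.01), so the replicate number was not taken as a pairing. A replicate block called 21 genes and 0 members at 20 days, and 1200 genes and 2 members at 30 days. Depth limits the 30-day values, where 2 genes had no read and the others had 4 to 61 counts per group with reads.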

Other observations

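TraesCS1A02G063200, the third gene model beyond TraesCS1A02G062900 on 1A, was high in some libraries and at 0 in others of the same group. It had 81.3, 109 and 0 FPKM in HP20 and 523, 119 and 109.7 FPKM in WT20. At 30 days it had 107, 0 and 0 FPKM in HP30 and 0 FPKM in all 3 WT30 libraries. It was chosen after its values were seen.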
